A study of Mus musculus with 26 samples.

Results

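Negative regulators of T cell receptor (TCR) signalling were followed through natural killer T (NKT) cell development as 7 genes: Ubash3a, Ptpn22, Ptpn6, Cblb, Dgka, Dgkz and Csk. They were chosen by name for their known role, with earlier results of these data known. All 7 were listed in each of the 26 libraries, among 23168 gene symbols with a usable value in every library. All 7 also passed the filter on low values, which kept the 11663 symbols that reached 1 FPKM in 4 or more libraries. FPKM counts fragments relative to transcript length and to all mapped fragments of the library. The order of genes on this scale depended on the library set described below, since Csk averaged 38.0 FPKM and Ptpn6 198 FPKM in stage 1 of one set, and 301 and 169 FPKM in the other, so levels of different genes are compared here only within a set.

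The RNA came from thymocytes of C57BL/6 mice aged 6 to 8 weeks, and every group shared that strain and age. DN1eP cells (4 libraries) were thymic precursors sorted as CXCR3+, Ly108-, CD27+, CD5+, CD24low, CD25- and CD44+ cells that were lineage-negative and lacked the Vα14Jα18 TCR at the surface. DN1eP-NKT cells (4 libraries) carried that receptor after DN1eP cells had spent 10 days on an OP9/Dll-1 stromal layer with mouse IL-2 and mouse IL-7, each at 5 ng/ml. Thymic NKT cells bound CD1d dimers loaded with αGalCer, were TCRβ+, and were sorted as stage 1 (CD44-, NK1.1-; 5 libraries), stage 2 (CD44+, NK1.1-; 7 libraries) and stage 3 (CD44+, NK1.1+; 6 libraries). The labels do not say whether libraries of a group came from separate animals, so p-values here reflect how much these samples vary and nothing wider. In sorted bulk RNA, fewer cells expressing a gene and less RNA per cell cannot be told apart.

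Signals from the TCR start with the kinase Lck, pass through Zap70 and a scaffold of adaptors, and end in diacylglycerol, calcium and the Ras pathway. The 7 genes encode brakes at successive steps. Csk phosphorylates the inhibitory tyrosine of Lck, Ptpn22 and Ptpn6 (SHP-1) remove activating phosphates, Ubash3a (TULA, STS-2) and the ubiquitin ligase Cblb act on engaged receptors and their kinases, and Dgka and Dgkz convert diacylglycerol to phosphatidic acid. NKT cells are selected in the thymus on lipid antigen shown by CD1d, a selection known for strong TCR signals, and then pass through stages 1 to 3 while acquiring NK receptors.

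The libraries fell into 2 sets of 13 when ordered by median FPKM over their expressed genes (those reaching 1 FPKM). The lower-median set (7.58 to 9.81) held all 4 DN1eP libraries, stage 1 libraries 3 to 5, stage 2 libraries 5 to 7 and stage 3 libraries 4 to 6. The higher-median set (12.97 to 13.85) held all 4 DN1eP-NKT libraries, stage 1 libraries 1 and 2, stage 2 libraries 1 to 4 and stage 3 libraries 1 to 3. DN1eP and DN1eP-NKT never shared a set, and 2 library kits were used without a label saying which library had which. Groups were therefore compared within a set. The files give no read totals. The deposited confidence interval of genes at 20 to 100 FPKM reached 5.53% to 6.29% to each side of the value in the lower-set thymic libraries. In DN1eP it was 6.23% in library 1 and 18.8% to 23.75% in libraries 2 to 4. In the higher-median set it was 6.87% to 7.6% in library 1 of DN1eP-NKT, stage 1 and stage 2. The other libraries of that set, all of stage 3 among them, had 15.31% to 21.94%. Of 8 T and NKT cell markers 7 were in the files, and all 7 were above 0 in every library, with a summed level of 1536 to 6553 FPKM. Erythroid and B cell markers summed to 199 and 142 FPKM in stage 2 library 6, and to 827 and 43.6 FPKM in stage 3 library 5. In DN1eP, B cell markers summed to 21.2 to 51.0 FPKM. Gamma-delta T cell markers, 3 of 6 being in the files, summed to 203.6 FPKM in stage 2 library 6. They summed to 48.8 to 83.2 FPKM in DN1eP and to 0.42 to 61.1 FPKM in the remaining libraries. Myeloid markers summed to 63.65 FPKM in stage 2 library 6 and 26.4 FPKM in stage 3 library 5. Myeloid markers summed to 360.2 FPKM in DN1eP library 1 and 23.0 to 36.2 FPKM in the other 3 DN1eP libraries, mast cell markers to 78.7 FPKM in that library and 516 to 613 FPKM in the others, and stromal markers to 73.2 to 383 FPKM in DN1eP-NKT. Mast cell markers also summed to 122.7 FPKM in stage 1 library 3, against at most 0.41 FPKM in the other 4 stage 1 libraries. That library is 1 of the 3 behind each lower-median comparison with stage 1.

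Ubash3a, Ptpn22 and Ptpn6 were the members that differed most between thymic stages, so the 250 bases before a start of each gene are shown first. They are RefSeq windows on GRCm38.p6, 5′ to 3′ on the gene's strand, and capitals mark matches to the Runx letters TGTGGT on either strand.
Ubash3a, chr17:31207816-31208065 (+): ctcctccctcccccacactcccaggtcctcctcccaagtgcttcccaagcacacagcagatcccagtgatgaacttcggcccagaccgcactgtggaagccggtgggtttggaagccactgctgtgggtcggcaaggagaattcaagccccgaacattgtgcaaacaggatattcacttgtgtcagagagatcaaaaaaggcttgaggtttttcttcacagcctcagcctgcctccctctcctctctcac
Ptpn22, chr3:103860027-103860276 (+): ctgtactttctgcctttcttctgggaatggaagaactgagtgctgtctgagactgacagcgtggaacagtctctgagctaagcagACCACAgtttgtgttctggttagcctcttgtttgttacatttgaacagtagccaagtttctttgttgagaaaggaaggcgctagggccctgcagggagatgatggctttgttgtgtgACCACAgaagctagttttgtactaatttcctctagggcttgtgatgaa
Ptpn6, chr6:124738710-124738959 (-): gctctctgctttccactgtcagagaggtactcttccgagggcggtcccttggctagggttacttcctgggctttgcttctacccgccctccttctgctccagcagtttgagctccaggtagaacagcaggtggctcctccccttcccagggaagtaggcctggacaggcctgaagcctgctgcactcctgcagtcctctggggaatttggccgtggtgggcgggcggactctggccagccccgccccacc

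RefSeq listed 13 start windows of 300 bases for the 7 genes, each reaching 50 bases past the start. Runx letters were in 1 of the 13, the downstream Ptpn22 start shown above. It held 3 matches, all on the strand opposite to the gene, at 165 and 48 bases before the start and 8 bases after it. Across 32851 RefSeq promoters of that length, 16.8% held TGTGGT on either strand. The T-box letters TCACACC (4.0% of promoters) and the Ets letters CCGGAA (14.9%) were in none of the 13 windows. These counts describe letters in these windows and nothing about the factors.

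Ubash3a lies on chromosome 17 at 31345011 to 31379348 in the mm9 build of the files. Mean Ubash3a was lower in stages 1 and 2 than in stage 3, DN1eP and DN1eP-NKT. Within the lower-median set it stood at 4.02, 7.40 and 14.4 FPKM in stage 1, at 3.89, 2.46 and 4.42 FPKM in stage 2 and at 31.4, 24.1 and 22.7 FPKM in stage 3. The 3 stage 3 libraries lay above all 6 earlier ones, and stage 1 ranged more widely than the others. Higher-median libraries gave 5.66 and 5.57 FPKM in stage 1, 3.02, 2.46, 3.95 and 3.51 FPKM in stage 2 and 23.4, 18.3 and 22.1 FPKM in stage 3. The order was the same, with no overlap between stage 3 and the earlier stages. DN1eP libraries 1 to 4 held 32, 13.9, 26.6 and 22.6 FPKM, and DN1eP-NKT libraries 1 to 4 held 10.8, 20.7, 25 and 20.7 FPKM. Library 2 was the lowest of DN1eP and library 1 the lowest of DN1eP-NKT. Both groups overlapped the range of stage 3 of their own set. DN1eP library 2 also lay under stage 1 library 5 (14.4 FPKM), so DN1eP overlapped stage 1 too. DN1eP-NKT library 1 lay under every stage 3 library of its set.

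Ptpn22 (chromosome 3, 103664215 to 103716170, mm9), the PEST phosphatase that acts on Lck and Zap70, climbed stage by stage. Stage 1 held 24.2, 39.7 and 23.8 FPKM, stage 2 held 52.2, 52.4 and 74.4 FPKM and stage 3 held 145, 131 and 98.9 FPKM in the lower-median set. No stage overlapped its neighbour, although stage 1 library 4 and stage 2 library 7 each stood apart from the rest of their stage. The other set repeated this order with 24.9 and 28.4 FPKM in stage 1, 45.5, 53.5, 42.7 and 50.6 FPKM in stage 2 and 105, 177 and 144 FPKM in stage 3. DN1eP was as high as stage 3 or higher, at 142, 173, 186 and 185 FPKM. DN1eP-NKT held 64.6, 63.6, 56.4 and 55.1 FPKM, between stage 2 and stage 3 of its set. In 8 of the 26 libraries the deposited Ptpn22 value lay outside its own deposited interval. These were DN1eP library 1, DN1eP-NKT library 1, stage 2 libraries 5 to 7 and stage 3 libraries 4 to 6. They include every library behind the lower-median comparison of stages 2 and 3. Counted over genes within a library, a different measure, 2.2% to 14.1% of positive values lay outside their intervals.

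Ptpn6 (chromosome 6, 124670736 to 124688727, mm9) encodes SHP-1, the phosphatase that inhibitory receptors recruit, and had the highest mean level of the 7 in stages 1 to 3 of the lower-median set and in stage 3 of the other. The lower-median stage 1 libraries 3 to 5 held 128, 186 and 279 FPKM, stage 2 held 145, 146 and 190.4 FPKM, and stage 3 held 257, 273 and 265 FPKM. Stage 1 library 5 alone lay above stage 3, and it also had the highest Ubash3a of the 5 stage 1 libraries. Higher-median values were 152 and 186 FPKM in stage 1, 159.8, 166, 150.4 and 182 FPKM in stage 2 and 342, 354 and 338 FPKM in stage 3, which did not overlap the earlier stages. DN1eP held 270.3 FPKM in library 1 and 112, 128 and 118 FPKM in libraries 2 to 4. DN1eP-NKT held 78.3, 77.3, 72.6 and 70.9 FPKM, the lowest Ptpn6 values of the 26 libraries. GENCODE M21 places exons of an antisense transcript, Gm20531, over those of Ptpn6, and no source used here says whether counting used strand, so their reads cannot be told apart.

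Cblb (chromosome 16, 52031662 to 52208159, mm9), which makes T cell activation depend on costimulation, had the lowest mean of the 7 in 5 of the 8 combinations of group and set, Ubash3a being lower in stages 1 and 2 of the higher-median set and in stage 2 of the lower. It stood at 4.52, 5.14 and 5.51 FPKM in stage 1, 4.40, 5.13 and 3.02 FPKM in stage 2 and 7.82, 6.99 and 6.90 FPKM in stage 3 of the lower-median set. Each stage 3 value was above all 6 earlier ones. The higher-median set gave 11.9 and 8.96 FPKM, then 12.3, 11.2, 11.9 and 10.2 FPKM, then 13.9, 18.7 and 12.1 FPKM, and here stages 2 and 3 overlapped. DN1eP ranged from 5.21 to 9.73 FPKM and DN1eP-NKT from 6.48 to 12.8 FPKM.

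Dgka (chromosome 10, 128157192 to 128181112, mm9), a diacylglycerol kinase of resting T cells, was called in none of the comparisons below. Lower-median libraries lay between 23.5 and 39.9 FPKM and higher-median libraries between 53.1 and 76.0 FPKM, whatever the cell group. Group means were 35.0, 29.5, 32.8 and 33.1 FPKM for DN1eP and stages 1, 2 and 3 of the lower-median set. They were 64.9, 58.9, 67.1 and 69.7 FPKM for DN1eP-NKT and the 3 stages of the higher. Exons of Pmel on the opposite strand overlap those of Dgka in GENCODE M21, with the same limit as for Ptpn6.

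Dgkz (chromosome 2, 91772979 to 91803720, mm9), the other diacylglycerol kinase of the set, was lowest in DN1eP, at 10.2, 9.68, 11.4 and 14.5 FPKM. Stages 1, 2 and 3 of the same set held 27.5, 27.8 and 18.5 FPKM, 24.9, 19.9 and 13.0 FPKM, and 17.1, 21.1 and 15.2 FPKM. DN1eP overlapped the thymic range only through its library 4. In the higher-median set DN1eP-NKT was again lowest, at 65.6, 76.7, 83.7 and 87.9 FPKM, under all 9 thymic libraries. Those held 147 and 205 FPKM in stage 1, 138, 181, 119.8 and 198 FPKM in stage 2 and 117, 99.4 and 107 FPKM in stage 3. Each stage 3 value was below all 6 earlier ones. Exons of Gm9821 overlap those of Dgkz on the opposite strand, with the limit given for Ptpn6.

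Csk (chromosome 9, 57474453 to 57492987, mm9) held 16.7, 17.6, 28.7 and 20.6 FPKM in DN1eP. The thymic libraries of that set held 40.7, 36.8 and 36.5 FPKM in stage 1, 45.4, 42.2 and 24.0 FPKM in stage 2 and 32.8, 33.1 and 33.6 FPKM in stage 3. DN1eP overlapped them only at stage 2 library 7. DN1eP-NKT held 124, 186, 219 and 211 FPKM. Stages of the higher-median set held 234 and 368 FPKM, then 199, 275, 190.0 and 307 FPKM, then 210.2, 187 and 217 FPKM. Csk was outside its own deposited interval in 10 of the 26 libraries, while Ubash3a, Ptpn6, Cblb, Dgka and Dgkz were outside it in none.

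**Figure D1:**
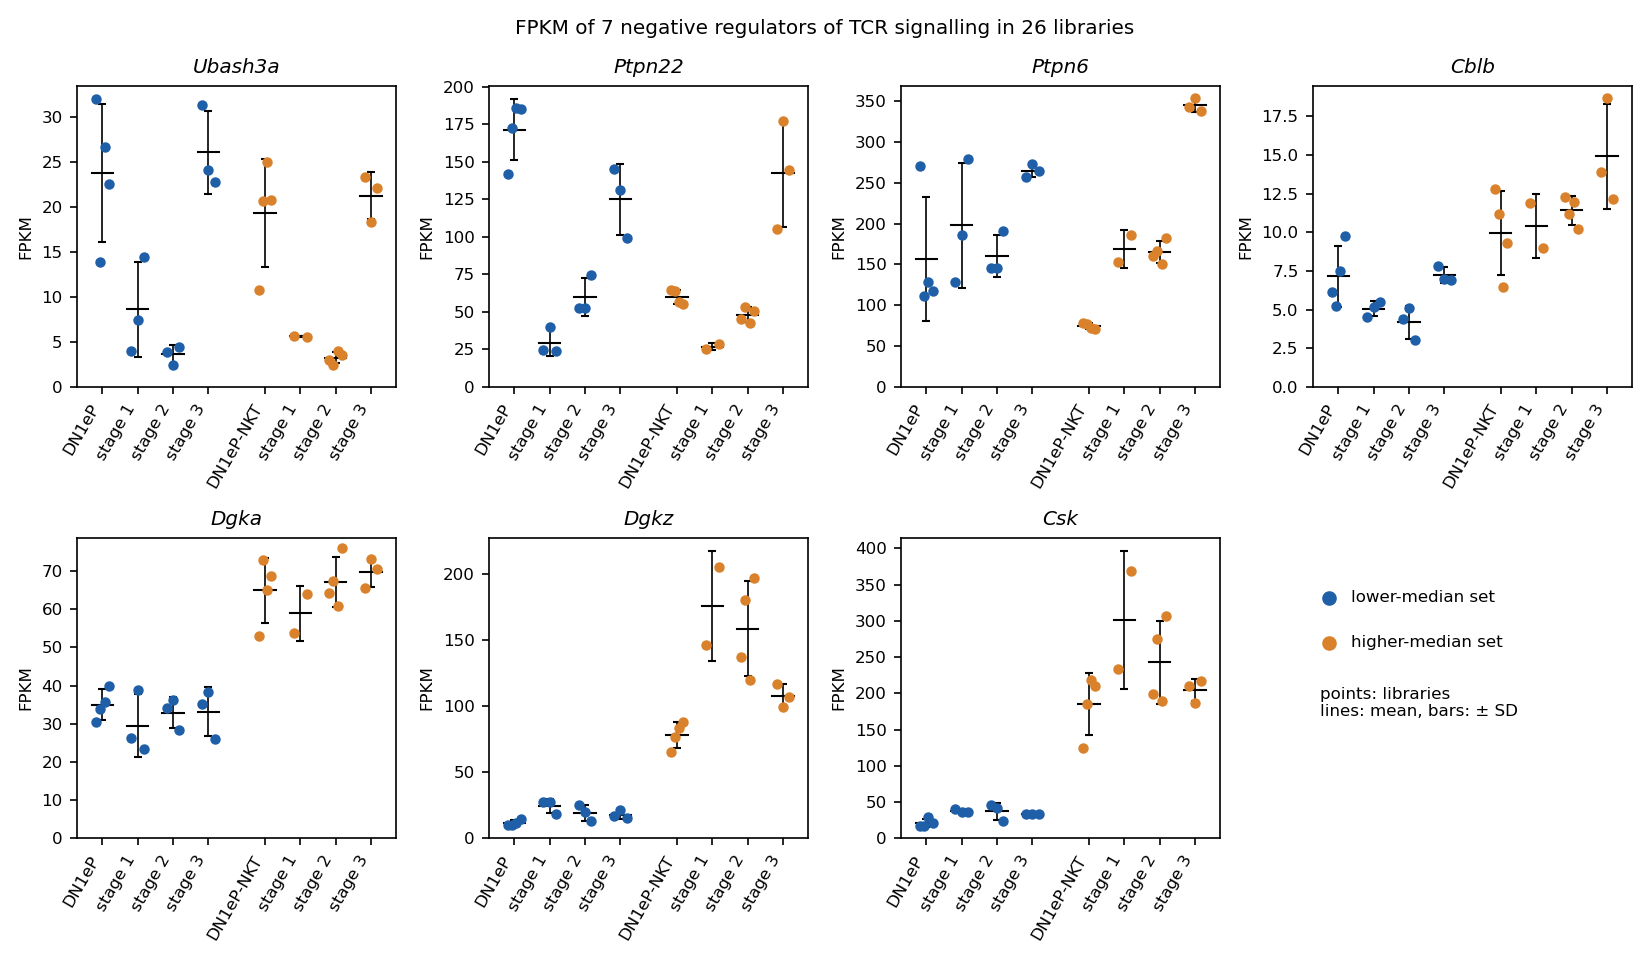
FPKM of the 7 genes (y axis, linear from 0) in each of the 26 libraries, by group along the x axis, with blue points for the lower-median set and orange for the higher. Lines are group means and bars are ± SD. Ubash3a is 22.7 FPKM or more in each lower-median stage 3 library and 4.42 or less in each stage 2 library, while Dgkz and Csk separate by colour more than by group.

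Between stage 2 and stage 3, Ubash3a and Ptpn22 were called higher in both sets and Ptpn6 in the higher-median set alone. No member was called lower, which does not show that none fell. Tests used limma on log2(FPKM + 1), the scale of every fold change here. The lower-median set called 2 of 7 members, both higher, where 11.7% of all 11663 genes were called (3.78% higher and 7.89% lower). Ubash3a rose by 2.57 ± 0.33 (log2 fold change ± SE, limma adjusted p = 5.01e-06) and Ptpn22 by 1.06 ± 0.21 (adjusted p = 0.0013). Ptpn6 and Cblb missed the threshold, at 0.73 ± 0.26 (adjusted p = 0.0671) and 0.69 ± 0.24 (adjusted p = 0.0655). Ptpn6 passed under 6 of 12 alternatives, among them an additive term for library set (0.90, adjusted p = 0.000227), no term for it (adjusted p = 0.0016), upper-quartile scaling (0.0232), quantile scaling (0.0351) and leaving out library 1 of all groups (0.0202). Cblb passed with the additive term at 0.50 (adjusted p = 0.0215) and with upper-quartile scaling at 0.87 (0.0213). Without stage 2 library 6, Cblb passed at 0.82 (adjusted p = 0.0455). The median over the 7 was 0.69, which is the value of Cblb, against -0.07 over all genes.

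Among the higher-median libraries, 3 of 7 members were called, all higher, against 21.6% of genes (8.64% higher and 12.9% lower). Ubash3a rose by 2.40 ± 0.31 (limma adjusted p = 1.69e-06), Ptpn22 by 1.52 ± 0.20 (adjusted p = 2.3e-06) and Ptpn6 by 1.07 ± 0.24 (adjusted p = 0.00184). Dgkz was at -0.53 ± 0.22 (adjusted p = 0.0895) and passed at -0.65 (adjusted p = 0.0499) without stage 2 library 3. In this set the median over the 7 was 0.34, the value of Cblb, against -0.03 over all genes. No member's stage change was called different between the sets. The limma test of that difference called 0 of 7, with 0 at an unadjusted p under 0.05, where 0.326% of genes were called (0.06% higher and 0.266% lower). The differences were -0.17 ± 0.46 for Ubash3a, 0.46 ± 0.29 for Ptpn22, 0.34 ± 0.35 for Ptpn6 and -0.45 ± 0.32 for Dgkz (higher set minus lower set, log2 ± SE). The 2 sets share no library, so the rise of Ubash3a and Ptpn22 was measured in separate libraries. Whether the sets came from separate animals is not stated in the labels. NK cell markers, which the NK1.1 gate of stage 3 selects for, moved the same way, from 31.5 to 102 FPKM summed in stage 2 to 1256 to 1962 FPKM in stage 3, and their part in the members' rise was not tested.

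Only Ptpn22 was called between stage 1 and stage 2, and in the lower-median set alone. It rose there by 1.02 ± 0.21 (limma adjusted p = 0.0236), as 1 of 7 members against 0.489% of genes (0.309% higher and 0.18% lower). That call was lost without stage 1 library 3 (adjusted p = 0.138), stage 1 library 5 (0.108), stage 2 library 6 (0.0637) or stage 2 library 7 (0.0996), with a log2 fold change of 0.86 to 1.26 over all libraries left out in turn. In the other set Ptpn22 was at 0.82 ± 0.23 (adjusted p = 0.281), where 0 of 7 members and 0.214% of genes (0.12% higher and 0.0943% lower) were called and 1 member had an unadjusted p under 0.05. Ubash3a went the other way without passing, at -0.94 ± 0.33 (adjusted p = 0.237) and -0.66 ± 0.35 (adjusted p = 1). The test of a difference between sets called 0 of 7 members and 0% of genes, 0 members having an unadjusted p under 0.05.

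From stage 1 to stage 3, Ubash3a and Ptpn22 rose in both sets. The lower-median set called these 2 of 7 members, against 25.4% of genes (5.24% higher and 20.1% lower), at 1.63 ± 0.33 (limma adjusted p = 0.000651) and 2.08 ± 0.21 (adjusted p = 9.07e-08). The higher-median set called 3 of 7, against 22.2% of genes (8.14% higher and 14% lower), with Ubash3a at 1.74 ± 0.37 (adjusted p = 0.00106), Ptpn22 at 2.34 ± 0.24 (adjusted p = 4.54e-08) and Ptpn6 at 1.03 ± 0.29 (adjusted p = 0.0103). Ptpn6 lost its call without stage 1 library 1, at 0.89 (adjusted p = 0.115). Dgkz and Csk were at -0.68 ± 0.26 (adjusted p = 0.0638) and -0.52 ± 0.28 (adjusted p = 0.206) there. Dgkz passed with quantile scaling (adjusted p = 0.0218), the set fitted alone (0.0363) and an additive set term (0.0124), at -0.56 to -0.68. Between the sets, 0 of 7 members and 0.317% of genes (0.06% higher and 0.257% lower) differed in this change, with 0 members at an unadjusted p under 0.05.

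**Figure D2:**
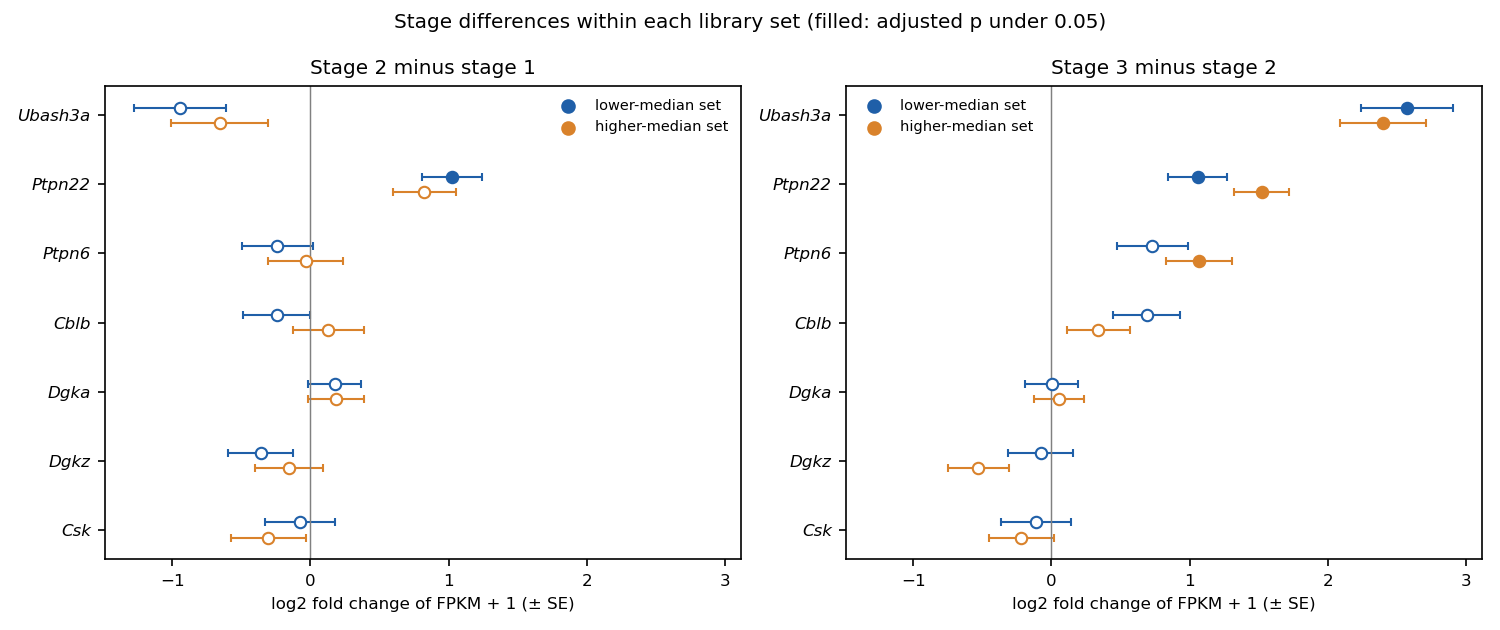
Log2 fold change of FPKM + 1 (x axis, ± SE) for each gene (y axis) from stage 1 to stage 2 (left) and from stage 2 to stage 3 (right), in blue for the lower-median and orange for the higher-median set. Filled points have an adjusted p under 0.05. On the right, Ubash3a (2.57 and 2.40) and Ptpn22 (1.06 and 1.52) are filled in both sets and Ptpn6 (1.07) in the higher-median set alone.

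DN1eP precursors carried more Ubash3a and Ptpn22 and less Dgkz and Csk than stage 1 and stage 2 NKT cells. Against stage 1, 4 of 7 members were called, where 33.7% of genes were (14.7% higher and 18.9% lower): Ubash3a at 1.46 ± 0.31 (limma adjusted p = 0.000795), Ptpn22 at 2.54 ± 0.20 (adjusted p = 7.52e-10), Dgkz at -1.03 ± 0.22 (adjusted p = 0.000778) and Csk at -0.86 ± 0.24 (adjusted p = 0.00638). Against stage 2, 5 of 7 were called, where 29.5% of genes were (17.9% higher and 11.6% lower). These were Ubash3a at 2.40 ± 0.31 (adjusted p = 3.03e-06), Ptpn22 at 1.52 ± 0.20 (adjusted p = 4.01e-06), Cblb at 0.64 ± 0.23 (adjusted p = 0.0332), Dgkz at -0.67 ± 0.22 (adjusted p = 0.0224) and Csk at -0.78 ± 0.24 (adjusted p = 0.0143). The last 3 calls rested on single libraries. Cblb was lost without DN1eP library 3 (adjusted p = 0.0666) or 4 (0.113) or stage 2 library 5 (0.0576) or 7 (0.179). Dgkz was lost without DN1eP library 2 (0.0629) or stage 2 library 5 (0.159) or 6 (0.0672), and Csk without stage 2 library 5 (0.0911) or 6 (0.0675). NK cell markers summed to 953 to 1911 FPKM in DN1eP and 10.7 to 138 FPKM in stages 1 and 2 of its set, and mast cell markers to 78.7 to 613 FPKM and 0.019 to 122.7 FPKM. Their part in these differences was not tested.

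Against stage 3, Ubash3a and Ptpn22 were not called in DN1eP. In this comparison 2 of 7 members were called, against 20.6% of genes (16.2% higher and 4.42% lower). Ptpn6 was lower in DN1eP by -0.85 ± 0.24 (limma adjusted p = 0.013), and by -1.15 (adjusted p = 9.08e-05) without DN1eP library 1, whose Ptpn6 of 270.3 FPKM stood beside its myeloid marker sum of 360.2 FPKM. That library also had the narrowest deposited intervals of DN1eP, at 6.23% against 18.8% to 23.75% in libraries 2 to 4 (genes at 20 to 100 FPKM). The part of other cells or of this library difference in its Ptpn6 value was not tested. Without DN1eP library 2 the call was lost, at -0.73 (adjusted p = 0.0537). Csk was at -0.67 ± 0.24 (adjusted p = 0.0441) and kept that call only when the library left out was DN1eP library 3, since the 6 other omissions gave adjusted p of 0.0713 to 0.122. Dgkz was at -0.60 ± 0.22 (adjusted p = 0.0548) and passed without DN1eP library 4, at -0.71 (adjusted p = 0.0353). The gap between all DN1eP and stage 3 genes shifted with scaling, their median being 0.16 as deposited and -0.04 after upper-quartile scaling. The share of calls that were higher in DN1eP went from 78.6% to 51.0%, and Dgkz passed there, at -0.88 (adjusted p = 0.00226).

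DN1eP-NKT cells from culture had more Ubash3a than stages 1 and 2, less Ptpn22 than stage 3 and less Ptpn6 than each thymic stage. Against stage 1, 4 of 7 members were called, with 15.2% of genes (8.49% higher and 6.76% lower). Ubash3a was at 1.56 ± 0.35 (limma adjusted p = 0.00217), Ptpn22 at 1.14 ± 0.23 (adjusted p = 0.000635), Ptpn6 at -1.16 ± 0.27 (adjusted p = 0.00311) and Dgkz at -1.14 ± 0.25 (adjusted p = 0.00151). Ptpn6 (adjusted p = 0.0806) and Dgkz (0.0855) were lost without stage 1 library 2, which left 1 library in that stage, assumed to vary like the other groups. Csk was at -0.70 ± 0.27 (adjusted p = 0.0864) and passed with upper-quartile scaling, at -0.71 (adjusted p = 0.0356).

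Compared with stage 2, DN1eP-NKT differed in 3 of 7 members, where 19.1% of genes were called (11.1% higher and 7.97% lower). Ubash3a was higher by 2.22 ± 0.29 (limma adjusted p = 1.48e-06), Ptpn6 lower by -1.13 ± 0.22 (adjusted p = 0.000438) and Dgkz lower by -0.99 ± 0.20 (adjusted p = 0.000662). Compared with stage 3, 2 of 7 were called, against 23.4% of genes (15% higher and 8.39% lower). Ptpn6 was at -2.19 ± 0.24 (adjusted p = 9.02e-08), the largest fall of any member in any of the within-set comparisons, and Ptpn22 at -1.21 ± 0.20 (adjusted p = 5.03e-05). Cblb was at -0.56 ± 0.23 (adjusted p = 0.0772) and passed without DN1eP-NKT library 1, at -0.68 (adjusted p = 0.0363). Stromal markers summed to 73.2 to 383 FPKM in DN1eP-NKT and to at most 1.01 FPKM in the higher-median thymic libraries. NK cell markers summed to 331 to 483 FPKM in DN1eP-NKT, 12.7 to 83.9 FPKM in stages 1 and 2 of its set and 1256 to 1354 FPKM in stage 3. For both lists, their part in these differences was not tested.

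**Figure D3:**
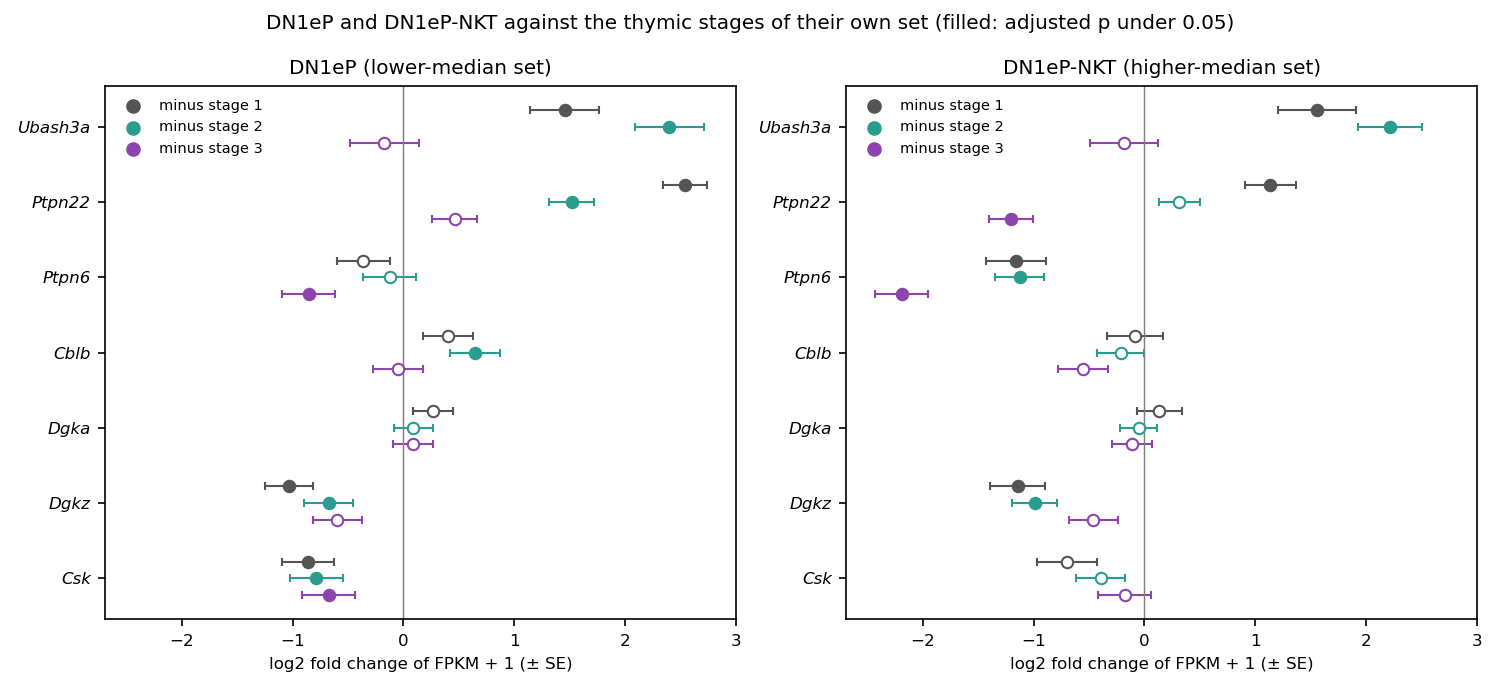
Log2 fold change of FPKM + 1 (x axis, ± SE) of DN1eP (left) and DN1eP-NKT (right) against stages 1 (grey), 2 (green) and 3 (purple) of their own library set, for the 7 genes (y axis), with filled points at an adjusted p under 0.05. Ubash3a lies above stages 1 and 2 in both panels (1.46 and 2.40, 1.56 and 2.22), and Ptpn6 lies furthest below stage 3 in the right panel (-2.19).

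DN1eP and DN1eP-NKT lie in different library sets, so their own difference was read only after each had been set against the mean of the 3 thymic stages of its set. On that relative scale Ptpn22 was lower in DN1eP-NKT by -1.43 ± 0.23 (limma adjusted p = 3.1e-05) and Ptpn6 by -1.05 ± 0.27 (adjusted p = 0.00443). These were 2 of 7 members, against 31.6% of genes (15% higher and 16.6% lower). Ptpn22 and Ptpn6 stayed called in each of the 8 fits that left out 1 library of either group, Ptpn6 at -0.75 (adjusted p = 0.00857) without DN1eP library 1. Cblb was at -0.62 ± 0.25 (adjusted p = 0.0637) and passed without DN1eP library 2 (adjusted p = 0.0361), DN1eP-NKT library 1 (0.0323) or stage 2 library 6 (0.0482). The scale assumes that the set difference of the thymic libraries holds for both groups, which these samples cannot check.

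The same stage comparison was then read for a wider list of negative regulators, chosen with earlier results of these data known. Of its 51 genes, 50 were tested. From stage 2 to stage 3, 9 were higher and 2 lower in the lower-median set, with a median of 0.13 against -0.07 over all genes, of which 3.78% were called higher and 7.89% lower. In the other set 14 were higher and 3 lower, with a median of 0.40 against -0.03, where 8.64% of all genes were called higher and 12.9% lower. The 9 that rose in the lower-median set also rose in the other, as 100% of the first list and 64.3% of the second, and the 2 that fell did so in both. The matching overlap over all genes was not computed, so this overlap is not read as a trait of the list. Cd244, the inhibitory and activating receptor 2B4 of NK cells, rose by 3.19 ± 0.35 and 3.31 ± 0.33 (lower and higher set, limma adjusted p = 5.59e-07 and 2.86e-08). Spry2, an inhibitor of Ras signalling, rose by 2.12 ± 0.54 and 2.60 ± 0.50 (adjusted p = 0.0108 and 0.000586). Cish, a cytokine-induced SOCS protein, rose by 1.69 ± 0.35 and 2.03 ± 0.33 (adjusted p = 0.00182 and 5e-05).

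The checkpoint receptor gene Pdcd1 went against that direction. It averaged 224 ± 42.1 FPKM (SD) in lower-median stage 2 and 47.3 ± 17.1 FPKM in stage 3, a change of -2.27 ± 0.37 (limma adjusted p = 0.000107). In the higher-median set Pdcd1 averaged 132 ± 19.5 FPKM and then 20.8 ± 0.95 FPKM, at -2.60 ± 0.34 (adjusted p = 2.95e-06). Matk, the Csk homologue that also phosphorylates the inhibitory tyrosine of Src kinases, fell from 1.11 to 2.19 FPKM in lower-median stage 2 to at most 0.07 FPKM in stage 3, and from 4.49 to 8.27 FPKM to at most 0.22 FPKM in the other set. Its changes were -1.41 ± 0.25 and -2.71 ± 0.23 (adjusted p = 0.000272 and 2.25e-09). Cd5, a receptor that dampens TCR signals in thymocytes, fell in the higher-median set by -0.70 ± 0.23 (adjusted p = 0.0334).

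Within their gene families, members and relatives did not move as 1 block from stage 2 to stage 3. Ubash3b, the paralogue of Ubash3a, was called in neither set, at 13.8 ± 2.31 and 14.3 ± 3.98 FPKM in stages 2 and 3 of the lower-median set and 35.4 ± 6.04 and 26.5 ± 5.49 FPKM in the other. Ptpn12, the ubiquitous PEST phosphatase, rose with Ptpn22, by 0.86 ± 0.28 and 0.81 ± 0.26 (limma adjusted p = 0.0458 and 0.0277). Of 6 tested diacylglycerol kinases, only Dgkd was called, higher by 0.81 ± 0.25 and 0.95 ± 0.24 (adjusted p = 0.0363 and 0.00459). Of all genes, 3.78% were called higher and 7.89% lower in the lower-median set, and 8.64% and 12.9% in the other. Ptpn11 (SHP-2), the relative of Ptpn6, and Pag1, the membrane anchor of Csk, were called in neither set. Pag1 averaged 6.89 ± 0.94 and 6.6 ± 1.47 FPKM in the lower-median stages 2 and 3 and 38.9 ± 4.76 and 35.7 ± 2.81 FPKM in the higher. These relatives were compared by call only, and differences between family members were not tested.

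**Figure D4:**
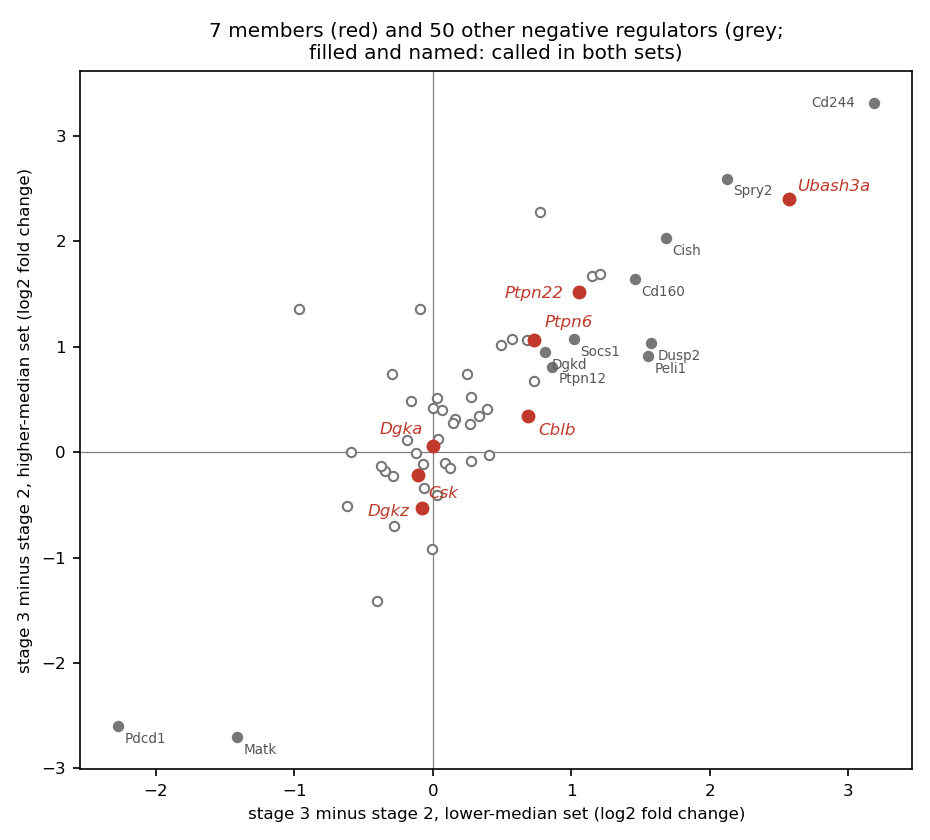
Log2 fold change from stage 2 to stage 3 in the lower-median set (x axis) and in the higher-median set (y axis), for the 7 genes (red) and 50 other negative regulators (grey, filled and named where called in both sets). Ubash3a (2.57, 2.40) lies near Cd244 (3.19, 3.31) and Spry2 (2.12, 2.60) at the upper right, and Pdcd1 (-2.27, -2.60) and Matk (-1.41, -2.71) lie at the lower left.

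The machinery that carries the TCR signal was read in the same way between stages 2 and 3. Of 26 kinases and adaptors, 4 were higher and 1 lower in the lower-median set, where 3.78% of all genes were called higher and 7.89% lower. In the other set 5 were higher and 2 lower, where 8.64% and 12.9% of all genes were. The median was 0.21 against -0.07 over all genes in the first and 0.20 against -0.03 in the second. Malt1, the paracaspase that links the receptor to NF-κB, rose by 1.42 ± 0.26 and 1.5 ± 0.24 (limma adjusted p = 0.000359 and 3.82e-05), and the adaptor Nck2 by 1.30 ± 0.29 and 1.29 ± 0.27 (adjusted p = 0.00323 and 0.000961). Themis, an adaptor of thymocyte selection that binds SHP-1, fell by -2.01 ± 0.34 and -3.45 ± 0.32 (adjusted p = 0.000168 and 7.69e-09). Its level went from 5.19 ± 2.62 to 0.45 ± 0.30 FPKM (mean ± SD) and from 15.6 ± 2.96 to 0.56 ± 0.54 FPKM. Of 12 transcripts that TCR signals are known to induce, 0 were higher and 1 lower in the lower-median set, with a median of 0.19, and 3 were higher and 3 lower in the other, with a median of 0.16. Of all genes, 11.7% were called in the first set and 21.6% in the second, in either direction. Irf4 was the one lower in both, at -2.52 ± 0.32 and -2.86 ± 0.30 (adjusted p = 4.73e-06 and 7.44e-08). Cd69 rose in the higher-median set by 3.08 ± 0.75 (adjusted p = 0.00531), and Egr2 fell there by -1.64 ± 0.35 (adjusted p = 0.0012).

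Against DN1eP the wider list differed in both directions. In DN1eP, 17 of 50 other negative regulators were higher and 5 lower than in stage 1, 16 higher and 6 lower than in stage 2, and 5 higher and 6 lower than in stage 3. Medians were 0.42, 0.48 and 0.30, against -0.07, 0.08 and 0.16 over all genes. Of all genes, 14.7% were called higher and 18.9% lower against stage 1, 17.9% and 11.6% against stage 2, and 16.2% and 4.42% against stage 3. Cd244 was higher than in stage 2 by 3.56 ± 0.33 (limma adjusted p = 1.82e-08) and Cd5 lower by -1.38 ± 0.23 (adjusted p = 0.000106), although DN1eP cells were sorted as CD5+. DN1eP-NKT had 7 higher and 10 lower than stage 1, 9 and 14 against stage 2, and 4 and 20 against stage 3, with medians of -0.03, -0.08 and -0.51 where all genes had -0.04, 0.01 and 0.05. The shares of all genes called higher and lower were 8.49% and 6.76%, 11.1% and 7.97%, and 15% and 8.39%. Relative to DN1eP, DN1eP-NKT had 5 of the 50 higher and 19 lower, and the list's median was -0.63 against -0.04. Socs1 was the largest rise, at 2.13 ± 0.32 (adjusted p = 1.72e-05), and Tnfaip3 (A20), which restrains NF-κB, the largest fall, at -4.44 ± 1.0 (adjusted p = 0.00249). Of the 26 kinases and adaptors 0 were higher and 15 lower on that scale, with a median of -0.71, where 15% of all genes were called higher and 16.6% lower, shares that also stand beside the 5 and 19 above.

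Patterns across the 18 thymic libraries were compared after the mean of the 3 stage means of each set had been subtracted. The members shared company only in part, Ubash3a and Ptpn6 each being among the other's 3 most alike genes. Values are Pearson correlations over libraries that share sets and stages, ranked among 7759 genes and given as a description. Ubash3a was most like Bcl2 (0.93), Maml2 (0.92) and Ptpn6 (0.92). Ptpn22 was most like Nkg7 (0.96), a granule protein of cytotoxic cells, Padi2 (0.96) and Cd38 (0.96). Ptpn6 followed Armc7 (0.93), Arhgap17 (0.92) and Ubash3a (0.92), and Cblb followed Kidins220 (0.91), Pik3r1 (0.90) and Ostf1 (0.87). Dgka was closest to Hectd3 (0.90), Gpcpd1 (0.85) and Ngrn (0.83). Dgkz had Wsb2 (0.94), Kat2a (0.93) and Srsf4 (0.92), and Csk had Stat5a (0.92), Actn4 (0.91) and Keap1 (0.91). Among the members, Ubash3a and Ptpn6 gave the highest value (0.92), and Dgkz and Csk gave 0.84. Other pairs among Ubash3a, Ptpn22, Ptpn6 and Cblb gave 0.59 to 0.72. Ptpn22 and Dgkz gave the lowest, -0.62.

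Dgkz and Csk differed far more between library sets than between cell stages. On the mean of the 3 stages, the higher-median set exceeded the lower by 2.78 (log2 of FPKM + 1) for Dgkz and 2.73 for Csk, against 1.04 for Cblb, 1.03 for Dgka, 0.09 for Ptpn6, -0.07 for Ptpn22 and -0.26 for Ubash3a, and a median of 0.56 over all genes. The longest coding GENCODE transcripts of Csk and Dgkz hold 60.1% and 59.6% G and C, at percentiles 96.1 and 95.0 of the 9966 tested genes matched (85.4%), while those of the other 5 members hold 45.1% to 54.9%. Across those genes the set difference correlated with GC content at a Spearman rho of 0.25 and with transcript length at 0.38, where genes are not independent replicates. Those transcripts of Csk and Dgkz are 2749 and 4169 bases long, and those of the other members 2308 to 7635 bases. The part of GC content, transcript length or library kit in the Dgkz and Csk levels was not tested. A level of these genes read across sets would follow the set: Dgkz averaged 159 ± 36.3 FPKM (SD, n = 4) in stage 2 of the higher-median set and 19.3 ± 5.97 FPKM (n = 3) in stage 2 of the lower.

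**Figure D5:**
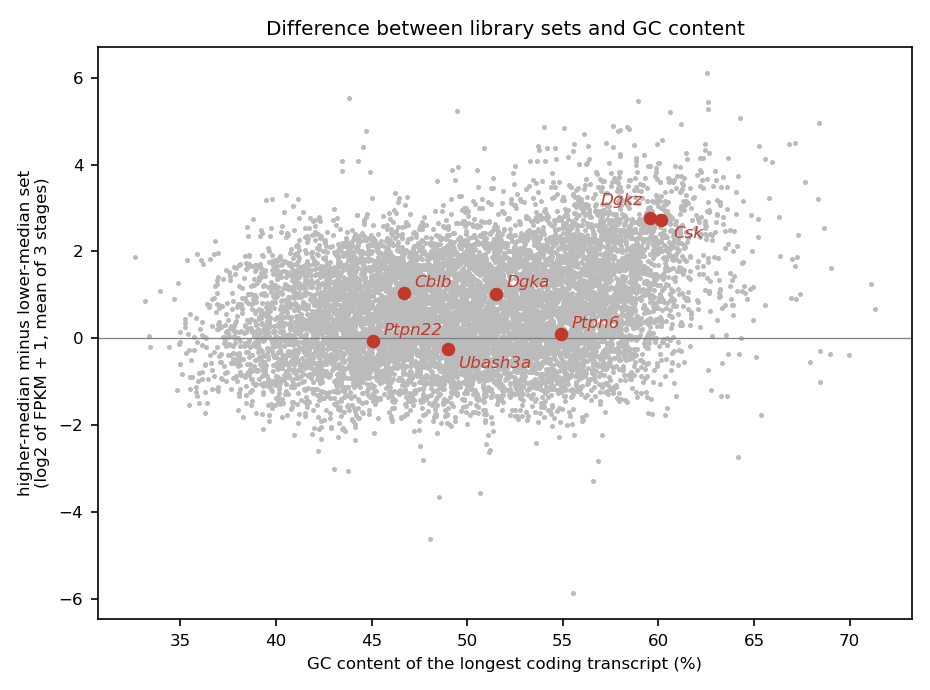
Difference between library sets (y axis, higher-median minus lower-median, log2 of FPKM + 1, mean of 3 stages) against GC content of the longest coding transcript (x axis, %), for 9966 genes (grey) and the 7 members (red). Dgkz (59.6%, 2.78) and Csk (60.1%, 2.73) sit at the right and high, and Ptpn6, Ptpn22 and Ubash3a sit between -0.26 and 0.09.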

How the data were processed

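Expression was measured by RNA sequencing in 26 libraries. The authors deposited FPKM values with confidence intervals, made with TopHat2 2.0.6 and Cufflinks 2.1.1 on mm9 per the submitters' processing notes. Read totals, strand setting and annotation are not given in the sources used here. Per the labels, SMARTer and TruSeq kits were used.

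Rows of one symbol were summed. Symbols missing from a file (86) or with a failed estimate (13) were left out. No pair of libraries was identical. A linear model on log2(FPKM + 1) was fitted once over all libraries in R 4.3.3 with limma 3.58.1, using robust, trended eBayes and 8 coefficients, 1 for each group in each set. Sets were split at a median of 11 FPKM. Tests were two-sided, with Benjamini-Hochberg adjustment over 11663 genes and a threshold of 0.05. The script was tested on simulated data.

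The members and lists were chosen with earlier results of these data known. Named genes were the 7 members, up to 3 called genes each way per list and comparison, and the 3 most alike genes per member over 5 FPKM. Of the list genes so named a part is printed, picked after their values were seen, as were the family members. GC content came from GENCODE M21 and promoters from RefSeq (GRCm38.p6). Alternatives were another pseudocount, filters, scalings, set terms, a replicate block, the highest row per symbol and left-out libraries.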

Additional observations from a re-analysis of the deposited data

Results flagged for a closer look

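In 3 of the 35 groups of 4 to 7 libraries examined, 1 library lay far from the rest by Dixon's criterion. Each group was 1 gene in 1 cell group, so groups of thymic stages pooled both library sets. Chance meets the criterion in about 1 of 20 groups when all values come from 1 population, which pooled sets need not be. A library apart only within its set could be missed there. Ptpn6 stood at 270.3 FPKM in DN1eP library 1 and at 112 to 128 FPKM in the other 3 DN1eP libraries. Ptpn22 stood at 39.7 FPKM in stage 1 library 4, the highest of 5, where the others held 23.8 to 28.4 FPKM. Ptpn22 was also apart in stage 2 library 7, at 74.4 FPKM, where the other 6 held 42.7 to 53.5 FPKM.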

How the results depend on the processing

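Ubash3a and Ptpn22 kept their stage 2 to stage 3 calls in both library sets under every alternative run. Alternatives were computed for 46 of the 112 member fold changes, those called or at least 0.5 in size on the log2 scale, which include none of Dgka. Over these and the alternative fits, 496 kept direction and side of the threshold, 22 passed it newly, 23 lost it and 5 reversed. With single libraries left out, the counts were 331, 7, 23 and 0. The cause was not tested for any change below. Member counts below are out of 7, and the number of all genes called moved with the fit as well. Over the 12 alternative fits, 830 to 3438 genes were called from stage 2 to 3 (lower) and 1979 to 4404 from stage 1 to 3 (lower). DN1eP gave 2716 to 4624 genes against stage 1, 923 to 4232 against stage 2 and 1016 to 3269 against stage 3. DN1eP-NKT gave 2077 to 3463 against stage 3. The member counts are therefore not read as a result about the members.

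The reversals came from dropping the term for library set: Cblb in DN1eP against stage 2 (-0.088), Dgkz (0.53) and Csk (1.05) in DN1eP-NKT against stage 1, Dgkz against stage 2 (0.29) and Cblb in the relative comparison (0.42). That fit also called 27 genes from stage 1 to 2 (lower set), 1 member from stage 1 to 2 (higher), 1460 genes from stage 2 to 3 (higher), 2 members for DN1eP against stage 1, 1 against stage 3, and 6136 genes and 5 members in the relative comparison. With an additive set term, 93 genes were called from stage 1 to 2 in either set and 1 member in the higher, 3438 genes and 4 members from stage 2 to 3 (lower), 4 members from stage 1 to 3 (lower), 4404 genes from stage 1 to 3 (higher) and 4 members for DN1eP-NKT against stage 3. With each set fitted alone, 15 genes and 0 members were called from stage 1 to 2 (lower), 830 genes from stage 2 to 3 (lower), 3 members for DN1eP against stage 2, and 1545 genes and 0 members against stage 3.

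A filter of 5 FPKM gave 14 genes from stage 1 to 2 (higher) and 19 whose stage 1 to 3 change differed between sets. No filter gave 74 genes from stage 1 to 2 (higher), 1 member for DN1eP against stage 3, and 9, 63 and 91 genes differing between sets from stage 1 to 2, 2 to 3 and 1 to 3. A pseudocount of 0.1 gave 12 genes from stage 1 to 2 (higher) and 0 genes differing between sets from stage 2 to 3 or 1 to 3. Quantile scaling gave 89 genes from stage 1 to 2 (lower), 4 members from stage 1 to 3 (lower), 4 members for DN1eP-NKT against stage 3 and 71 genes differing from stage 1 to 3. Upper-quartile scaling gave 4 members from stage 2 to 3 and 5 from stage 1 to 3 (lower), 15 genes from stage 1 to 2 (higher) and 22 differing from stage 2 to 3. As deposited, after upper-quartile and after quantile scaling, the share of calls that were higher was 63.2%, 75% and 83.1% from stage 1 to 2 (lower), 32.4%, 48.8% and 44.2% from stage 2 to 3 (lower), 20.6%, 47.3% and 47.3% from stage 1 to 3 (lower), 56.0%, 73.3% and 76.9% from stage 1 to 2 (higher), 60.7%, 51.7% and 49.0% for DN1eP against stage 2, 78.6%, 51.0% and 50.7% against stage 3, 58.3%, 54.1% and 47.7% for DN1eP-NKT against stage 2, 64.1%, 55.6% and 48.8% against stage 3, and 18.9%, 8.0% and 14.1% for the set difference from stage 1 to 3.

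Same-numbered libraries correlated at -0.11 to 0.48 over 16 pairs in the higher set and -0.35 to 0.03 over 8 in the lower, so the numbers were not taken as pairs. The highest values, 0.431 to 0.484, were among library 1 of DN1eP-NKT, stage 1 and stage 2, which had the narrowest deposited intervals of that set (6.87% to 7.6%). Stage 3 library 1 gave -0.101 to -0.043 with these libraries. This likeness was therefore uneven across groups, and its part in the comparisons was not tested. Lower-set stages carry different numbers (3 to 5, 5 to 7 and 4 to 6), so equal numbers need not mark matched samples there. The 55 different-numbered pairs of that set spanned -0.302 to 0.392. Taken in order, stages 2 and 3 gave 0.387, 0.392 and 0.178, and stages 1 and 2 gave 0.119, 0.191 and 0.228. Stages 1 and 3 gave -0.055, 0.15 and 0.082. Pairing in order was not tested, and the replicate block went by number. With a replicate block, 21 genes and 0 members were called from stage 1 to 2 (lower), 9 genes from stage 1 to 2 (higher), 923 genes and 2 members for DN1eP against stage 2, 1016 genes and 0 members against stage 3, 6 genes differing between sets from stage 2 to 3 and 2287 genes in the relative comparison. The block also passed Ptpn6 from stage 2 to 3 in the lower set (adjusted p = 0.0373) and Dgkz from stage 1 to 3 in the higher (adjusted p = 0.0408).

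Leaving out stage 2 library 6 and stage 3 library 5 together gave 14 genes and 0 members from stage 1 to 2 (lower), 3 members for DN1eP against stage 2 and 1 against stage 3. Leaving out library 1 of all groups, chosen after seeing the data, gave 93 genes from stage 1 to 2 (lower), 1 member for DN1eP against stage 3 and 4 genes differing between sets from stage 1 to 2. With 1 library left out at a time, counts ranged over 16 to 352 genes and 0 to 1 members from stage 1 to 2 (lower), 3 to 19 genes from stage 1 to 2 (higher), 1538 to 2217 genes from stage 1 to 3 (higher), 2 to 5 members for DN1eP against stage 2, 1287 to 3272 genes and 0 to 2 members against stage 3, 1067 to 1762 genes and 2 to 4 members for DN1eP-NKT against stage 1, and 0 to 4, 16 to 52 and 12 to 45 genes differing between sets from stage 1 to 2, 2 to 3 and 1 to 3. Depth is unknown, so no limit from it is given.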
